A study of Mus musculus with 9 samples.

Results

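The genes described here are 10 markers of endothelial cells, Pecam1, Esam, Cldn5, Emcn, Tek, Tie1, Eng, Vwf, Lyve1 and Prox1, among the 19930 genes that 9 Mouse Gene 1.0 ST arrays (Affymetrix) measured. Each was taken by its symbol, through the probe set annotated to that symbol and no other, and each of the 10 had 1 such probe set. The arrays hold adipose stromal cells of the mammary gland of female Balb/c mice, with 3 preparations from nulliparous mice at 8 weeks of age that were kept away from males (ASC-Ns), 3 from lactating mice at day 5 (ASC-Ls) and 3 from involuting glands at day 3 (ASC-Is). The study describes RNA from low passage cultures, whereas the sample labels describe adipose stroma after enzymatic digestion and centrifugation. The labels call the preparations biological replicates, but which mice stand behind each array is not stated, so that the tests measure the spread between these preparations. Values are deposited log2 signals, on which a difference of 1 is a doubling. They are given in the order of replicates 1, 2 and 3. Because each probe set has its own response, signals of different genes were not read as relative amounts of transcript. Percentiles of mean signal and means over marker lists describe the signal alone.

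Endothelial cells line blood and lymphatic vessels. They hold to each other through junction proteins, receive angiopoietin and VEGF signals from neighboring stromal cells, and in blood vessels store von Willebrand factor for release on injury, while lymphatic endothelium carries Lyve1 and depends on the transcription factor Prox1. In the mammary fat pad the capillary bed surrounds both adipocytes and the epithelium, and digestion of this tissue releases endothelial cells together with the stromal cells. The comparison addressed here is whether such markers differed with the stage of the gland, and how far arrays of the same stage differed from each other.

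Medians of the arrays lay within 0.0765 of each other on the log2 scale, and arrays of the same stage correlated across genes with r from 0.956 to 0.990, genes not being independent replicates. As for the labelled cell type, the mean log2 signal over 13 markers of fibroblasts and adipose progenitors lay between 9.40 and 10.03 in ASC-Ns, between 8.96 and 10.16 in ASC-Ls and between 9.43 and 10.12 in ASC-Is. Over 12 markers of mature adipocytes the mean lay between 5.50 and 5.63 on all 9 arrays. In RNA from mixed cells, fewer cells of a type and less RNA per cell cannot be told apart, and whether a signal was above background was not tested.

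Part of the endothelial markers were high in 1 array of each stage. Emcn, Pecam1, Esam and Tie1 were high in ASC-N replicate 1, ASC-L replicate 2 and ASC-I replicate 2, and Cldn5 and Tek had their highest value in the same arrays by smaller margins, Tek with a second nulliparous array almost as high. Eng, Vwf, Lyve1 and Prox1 did not share this pattern, and Vwf, Lyve1 and Prox1 varied less within stages than the median gene. The range within each stage was wider than any difference between stage means for Emcn, Pecam1, Esam and Tie1, and also for Tek, Cldn5 and Eng.

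RefSeq promoter sequence of GRCm38.p6 was held for 6 of the 10 markers. That of Tek was not used, because the window could not be placed before its first annotated start. The 150 bases before the first annotated start are shown for a pair of markers that were high in the same arrays, Emcn and Tie1, and for Eng, which was not. The capitals mark the letters GGAAG or their reverse complement CTTCC. These letters extend GGAA, the core of binding sites for ETS family transcription factors, which are known regulators of endothelial genes. GGAA followed by another letter, or its reverse complement, was neither marked nor counted. Overlapping matches were counted separately.
Emcn, chr3:137340912-137341061, plus strand: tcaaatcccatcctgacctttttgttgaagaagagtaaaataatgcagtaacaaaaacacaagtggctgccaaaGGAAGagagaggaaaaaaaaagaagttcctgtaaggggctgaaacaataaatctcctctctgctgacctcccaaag
Tie1, chr4:118489850-118489999, minus strand: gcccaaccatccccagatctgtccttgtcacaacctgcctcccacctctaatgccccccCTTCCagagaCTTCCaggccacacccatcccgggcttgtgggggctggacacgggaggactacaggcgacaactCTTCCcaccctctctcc
Eng, chr2:32646445-32646594, plus strand: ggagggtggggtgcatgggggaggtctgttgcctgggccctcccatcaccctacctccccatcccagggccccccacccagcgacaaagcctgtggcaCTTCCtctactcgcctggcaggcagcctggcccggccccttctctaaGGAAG
The letters occurred 1 time before Emcn, 3 times before Tie1 and 2 times before Eng, and 0 times in the windows of the same length before Cldn5 (chr16:18776697-18776846) and Prox1 (chr1:190170828-190170977). Of 32851 RefSeq promoter windows of this length, 47.7% held at least 1 match on either strand and 15.2% held 2 or more. Those windows lay before the start of each promoter entry, whereas the windows of the markers lay before the first annotated start of the gene. The counts for the markers describe their own windows and nothing further upstream.

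Emcn encodes endomucin, a sialomucin on the surface of capillary and venous endothelium. Its log2 signal was 8.19, 4.38 and 3.91 in ASC-Ns, 4.16, 8.83 and 4.84 in ASC-Ls, and 3.94, 7.98 and 4.35 in ASC-Is. The high array of each stage stood 3.81, 3.99 and 3.62 above the next, which is 14.1-fold, 15.9-fold and 12.3-fold. The other 6 arrays lay between 3.91 and 4.84, and the 3 stages overlapped in full. Whether the signal of those 6 arrays was above background was not tested. Across all 9 arrays the signal spanned 30.2-fold. The SD between arrays of 1 stage was 2.37 on the log2 scale, rank 10 of 19930 genes, against a median of 0.196 over all genes.

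Pecam1, the adhesion molecule CD31 of endothelial cell borders, read 7.99, 5.14 and 4.99 in ASC-Ns, 5.21, 8.03 and 5.60 in ASC-Ls, and 4.85, 7.22 and 5.49 in ASC-Is. The same 3 arrays were high, by 7.20-fold, 5.38-fold and 3.32-fold over the next array of their stage. Its SD within a stage was 1.49, which placed it at rank 72 of all genes.

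Esam, an immunoglobulin family adhesion molecule of endothelial tight junctions, read 6.49, 5.04 and 5.31 in ASC-Ns, 5.49, 7.28 and 5.76 in ASC-Ls, and 5.40, 7.11 and 5.32 in ASC-Is. Gaps between the highest and the next array were 1.17, 1.52 and 1.71. Cldn5, the main claudin of endothelial tight junctions, was flatter, with 6.60, 5.69 and 5.89 in ASC-Ns, 6.15, 6.39 and 5.98 in ASC-Ls, and 6.20, 6.39 and 5.83 in ASC-Is. The same arrays were its highest, yet only by 0.71, 0.24 and 0.19, and its range over all arrays was 0.91.

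Tek and Tie1 encode the receptors Tie2 and Tie1, which set the quiescence of vessels, Tek as the receptor for angiopoietins and Tie1 as its partner. Tie1 read 6.27, 5.08 and 5.11 in ASC-Ns, 5.21, 6.55 and 5.43 in ASC-Ls, and 5.27, 5.74 and 5.27 in ASC-Is, with gaps of 1.16, 1.12 and 0.47 above the next array. Tek read 5.94, 5.90 and 4.99 in ASC-Ns, 5.04, 6.06 and 5.54 in ASC-Ls, and 5.06, 5.55 and 4.96 in ASC-Is. Unlike Tie1, Tek was about as high in ASC-N replicate 2 as in ASC-N replicate 1, a gap of 0.04, and it was ASC-N replicate 3 that stood below both by 0.91. Ptprb, the endothelial phosphatase that acts on Tek, read 6.10, 6.22 and 4.89 in ASC-Ns, 5.49, 5.76 and 5.66 in ASC-Ls, and 5.71, 5.67 and 5.11 in ASC-Is. Tek is also carried by a subset of macrophages, and the mean over 18 macrophage and monocyte markers was 8.06, 7.97 and 6.05 in ASC-Ns, 6.67, 6.64 and 6.41 in ASC-Ls, and 8.80, 7.22 and 7.69 in ASC-Is. Tek and the mean of these markers were both lowest in ASC-N replicate 3 among the nulliparous arrays. Among the involution arrays the mean was lowest in ASC-I replicate 2, where Tek was highest. In the lactation arrays it lay between 6.41 and 6.67, while Tek differed by 1.02. The list was not made for the subset that carries Tek, and the part of macrophages in the Tek signal was not tested.

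**Figure D1:**
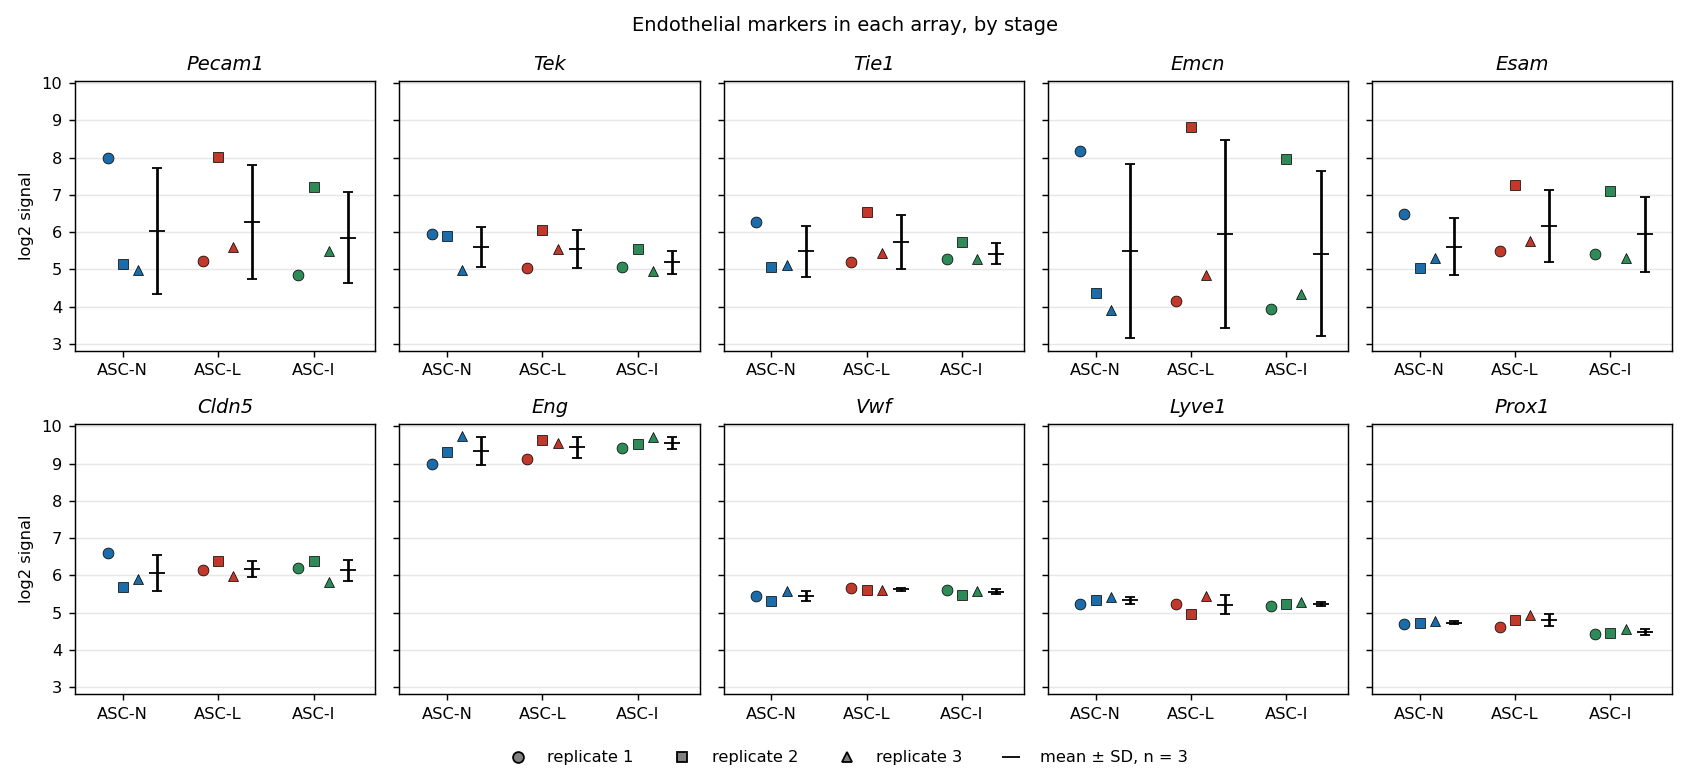
Deposited log2 signal (vertical axis) of each endothelial marker in the 3 arrays of nulliparous (ASC-N), lactation (ASC-L) and involution (ASC-I) preparations; circles, squares and triangles are replicates 1, 2 and 3, and bars are the mean ± SD (n = 3). Emcn, Pecam1, Esam and Tie1 are high in ASC-N replicate 1, ASC-L replicate 2 and ASC-I replicate 2, and Eng, Vwf, Lyve1 and Prox1 are not.

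Eng encodes endoglin, a co-receptor for TGF-beta and BMP ligands in endothelium that mesenchymal stromal cells also carry. It read 8.99, 9.31 and 9.73 in ASC-Ns, 9.12, 9.64 and 9.57 in ASC-Ls, and 9.41, 9.54 and 9.72 in ASC-Is. ASC-N replicate 1, the highest nulliparous array for Emcn, was the lowest of all for Eng, and the whole range was 0.74. Acvrl1, the receptor ALK1 that acts with endoglin, read 7.49, 7.16 and 8.63 in ASC-Ns, 8.07, 6.78 and 7.91 in ASC-Ls, and 8.05, 7.20 and 8.18 in ASC-Is, so that it was lowest in replicate 2 of each stage.

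Vwf, the clotting factor stored in Weibel-Palade bodies, read 5.44, 5.32 and 5.59 in ASC-Ns, 5.67, 5.60 and 5.61 in ASC-Ls, and 5.61, 5.48 and 5.59 in ASC-Is. Its range over 9 arrays was 0.35, and its SD within a stage, 0.0907, was below that of most genes (percentile 4.58). The high arrays of Emcn thus had no raised Vwf signal. Of 12 measured genes tied to Vwf and these storage bodies, 0 were highest of their stage in all 3 of those arrays. This held for 5.143% of all genes, so that a count of 0 in 12 is near the background.

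Lyve1 and Prox1, the markers of lymphatic endothelium among the genes described here, varied little as well. Lyve1, a hyaluronan receptor that some macrophages also carry, read 5.23, 5.35 and 5.43 in ASC-Ns, 5.23, 4.95 and 5.45 in ASC-Ls, and 5.19, 5.24 and 5.27 in ASC-Is. Prox1 read 4.68, 4.73 and 4.77 in ASC-Ns, 4.62, 4.82 and 4.95 in ASC-Ls, and 4.43, 4.45 and 4.56 in ASC-Is. Among other lymphatic markers, Nts, the precursor of neurotensin, was highest in the arrays highest for Emcn, at 4.50, 4.06 and 4.03 in ASC-Ns, 4.18, 6.69 and 4.46 in ASC-Ls, and 3.94, 6.02 and 4.19 in ASC-Is. Flt4, the receptor of VEGF-C, had its highest value in the same arrays, with smaller gaps, and the remaining 9 of 11 lymphatic markers did not. These 11 were not uniformly stable, as their SD within a stage lay between percentile 3.77 (Mmrn1) and percentile 98.5 (Nts) of all genes. The part of stromal cells in the signals of these 11 was not tested.

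Over the markers, the SD between arrays of a stage had a median of 0.402 against 0.196 for all genes, and 4 of 10 (Emcn, Pecam1, Esam and Tie1) lay above the 90th percentile. Tek and Cldn5 stood at percentiles 89.7 and 81.9, Eng at 74.9, Lyve1 at 31.4 and Prox1 at 9.25. Of the 32 other endothelial markers measured, 16 lay above the 90th percentile, with a median SD of 0.467. A wide spread was not particular to endothelial markers. The 18 macrophage and monocyte markers lay between percentiles 92.6 (Cd14) and 99.5 (C1qb). Those of luminal epithelium lay between percentiles 32.3 (Elf3) and 99.97 (Krt18). Krt18 and Epcam, each with an SD of 2.41, exceeded Emcn at 2.37.

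**Figure D2:**
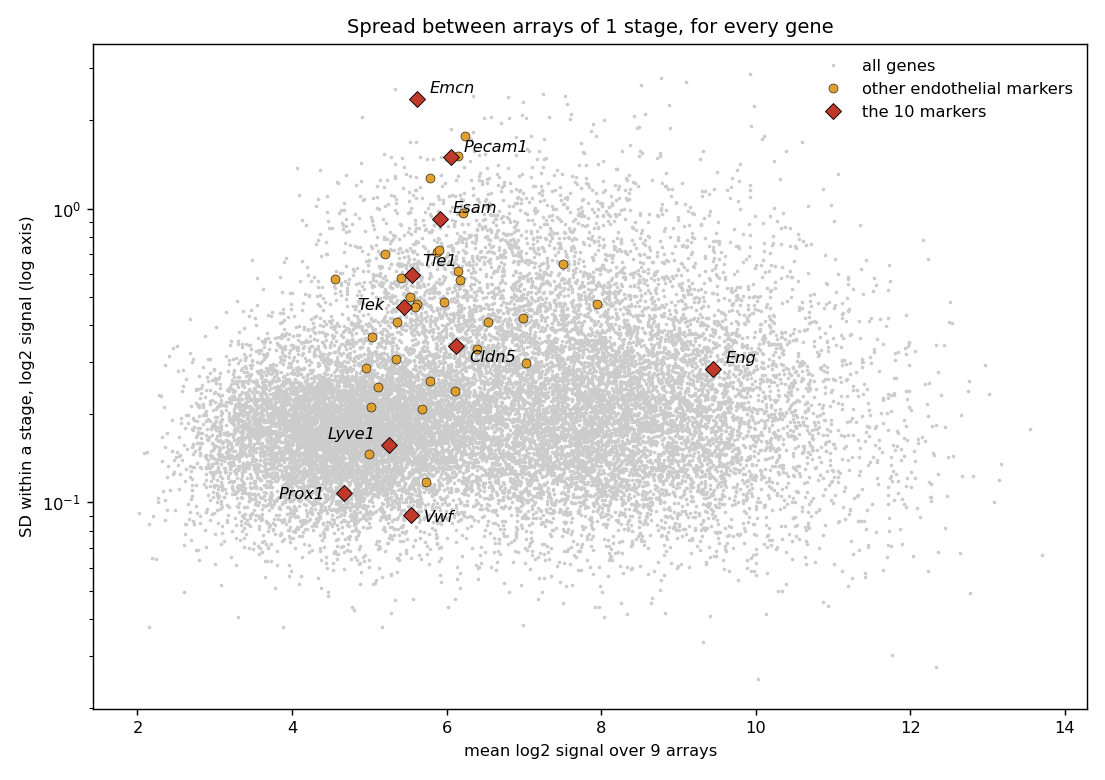
SD of the log2 signal between arrays of 1 stage, pooled over the 3 stages (vertical, log axis), against the mean log2 signal over 9 arrays (horizontal) for each of 19930 genes, with the 10 endothelial markers as red diamonds and 32 other endothelial markers as orange circles. Emcn (2.37) and Pecam1 (1.49) lie near the top of all genes, and Vwf (0.0907) and Prox1 (0.107) near the bottom.

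Other genes of endothelium shared the pattern. ASC-N replicate 1, ASC-L replicate 2 and ASC-I replicate 2 were each the highest of their stage for 6 of the 10 markers and for 22 of 32 other endothelial markers, compared with 1025 of 19930 genes (5.143%). This arrangement was noticed in the values of the markers themselves and is given as a description without a test. With a gap of at least 1 on the log2 scale in every stage, 14 genes of the array remained, among them Emcn, Pecam1 and Esam. Cdh5, the cadherin of endothelial adherens junctions, was another of the 14, with 8.08, 5.39 and 5.19 in ASC-Ns, 5.06, 8.13 and 5.51 in ASC-Ls, and 5.06, 7.38 and 5.53 in ASC-Is. Adgrf5 and Adgrl4, adhesion receptors of endothelium, were the other endothelial markers listed. Kdr, the main VEGF receptor, read 6.46, 5.80 and 4.67 in ASC-Ns, 6.05, 6.97 and 5.72 in ASC-Ls, and 5.13, 6.12 and 5.94 in ASC-Is, which puts the same arrays highest with narrower gaps.

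Not all endothelial markers followed. Aqp1, a water channel, was lowest in ASC-L replicate 2 at 5.36 and read 6.95, 5.59 and 6.33 in ASC-Ns. With it, Tal1, Clec14a, S1pr1, Fli1, Ptprb, Ecscr, Cyyr1, She and Gja4 made up the 10 of 32 that did not have all their highest values in these arrays. Fli1, S1pr1 and Tal1 are expressed in blood cells as well, and why these 10 differed from the others was not tested.

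**Figure D3:**
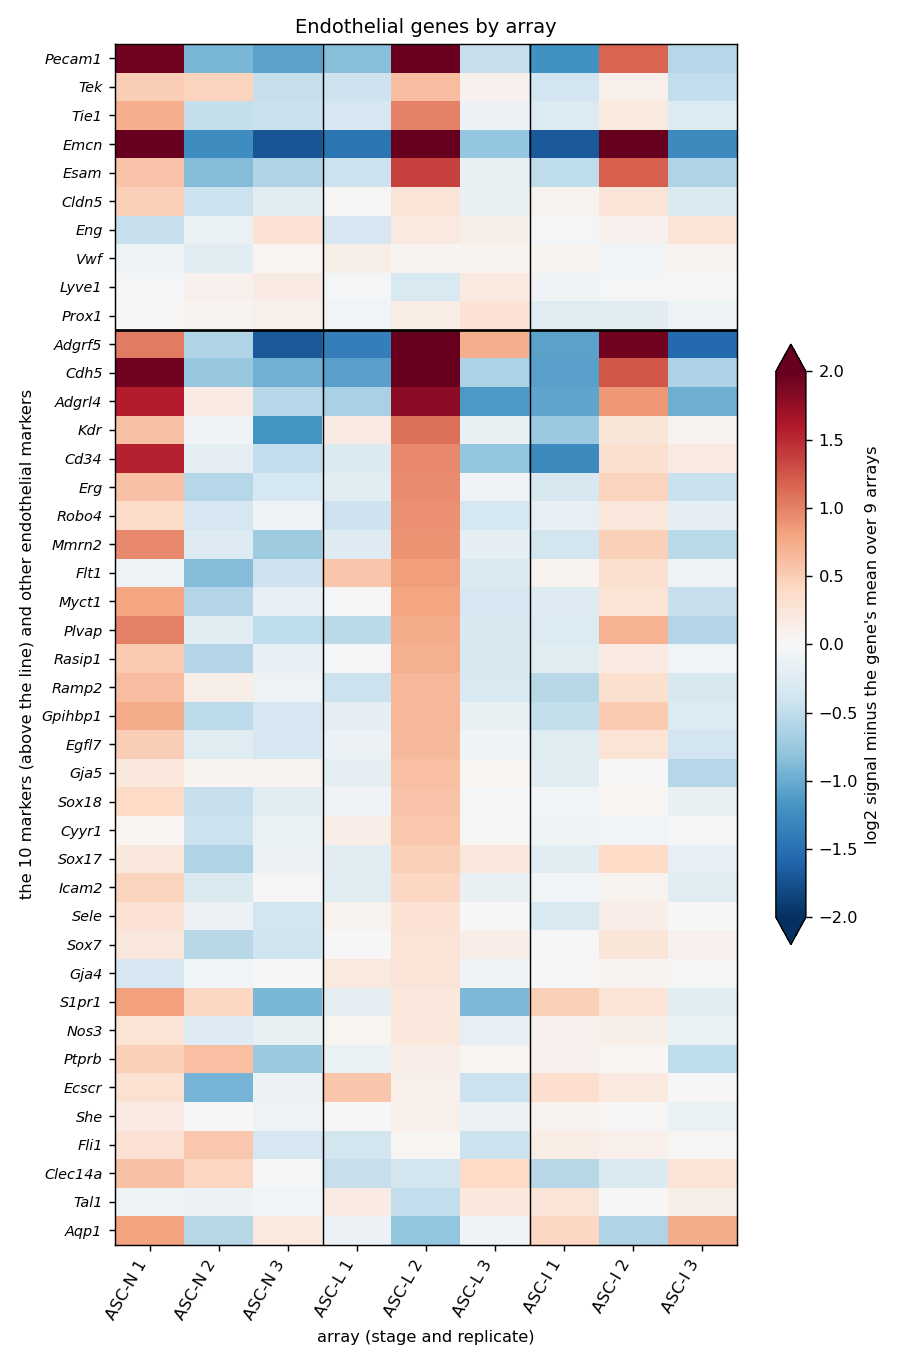
Log2 signal minus the mean of the gene over 9 arrays (color, saturated beyond -2 and 2) for the 10 endothelial markers above the line and 32 other endothelial markers below it, ordered by their value in ASC-L replicate 2; columns are the 9 arrays. The columns ASC-N 1, ASC-L 2 and ASC-I 2 hold the highest value of their stage for 6 of the markers and 22 of the others, while Eng, Vwf, Lyve1 and Prox1 do not share this.

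Markers of other cell types varied between arrays as well. For 18 markers of luminal epithelium, the mean log2 signal was 6.74, 6.65 and 5.51 in ASC-Ns, 5.73, 8.71 and 5.96 in ASC-Ls, and 5.65, 7.38 and 5.51 in ASC-Is. The lactation and involution arrays highest in epithelial signal were thus the ones highest in Emcn, whereas ASC-N replicates 1 and 2 had nearly the same epithelial signal and differed by 3.81 in Emcn. Of the 18, 7 had their highest value in the 3 arrays, against 5.143% of all genes. Of the 18 macrophage and monocyte markers, whose means are given beside Tek, 0 were highest in the 3 arrays of high Emcn. At the share over all genes, a count of 0 in 18 is near the background. The 13 fibroblast and adipose progenitor markers had their lowest mean of the stage in ASC-L replicate 2 (8.96) and ASC-I replicate 2 (9.43). Among ASC-Ns it was lowest in replicate 2 (9.40), with 9.84 in replicate 1. The part of the epithelial or the fibroblast signal in the endothelial pattern was not tested.

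Pericytes, the mural cells wrapped around capillaries, share markers with smooth muscle and fibroblasts. Rgs5, the marker most used for pericytes, read 7.88, 4.83 and 4.61 in ASC-Ns, 4.65, 6.16 and 5.27 in ASC-Ls, and 4.91, 5.69 and 4.92 in ASC-Is. It was highest in the arrays that were highest for Emcn, as were Mcam, Abcc9 and Kcnj8. That makes 4 of 16 pericyte and smooth muscle markers, against 5.143% of all genes. Cspg4, the proteoglycan NG2, read 6.49, 6.53 and 6.01 in ASC-Ns, 5.62, 8.78 and 6.92 in ASC-Ls, and 5.83, 8.06 and 5.75 in ASC-Is, so that it matched in the parous stages alone. Pdgfrb lay between 10.59 and 11.64 on all arrays and did not follow Emcn.

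**Figure D4:**
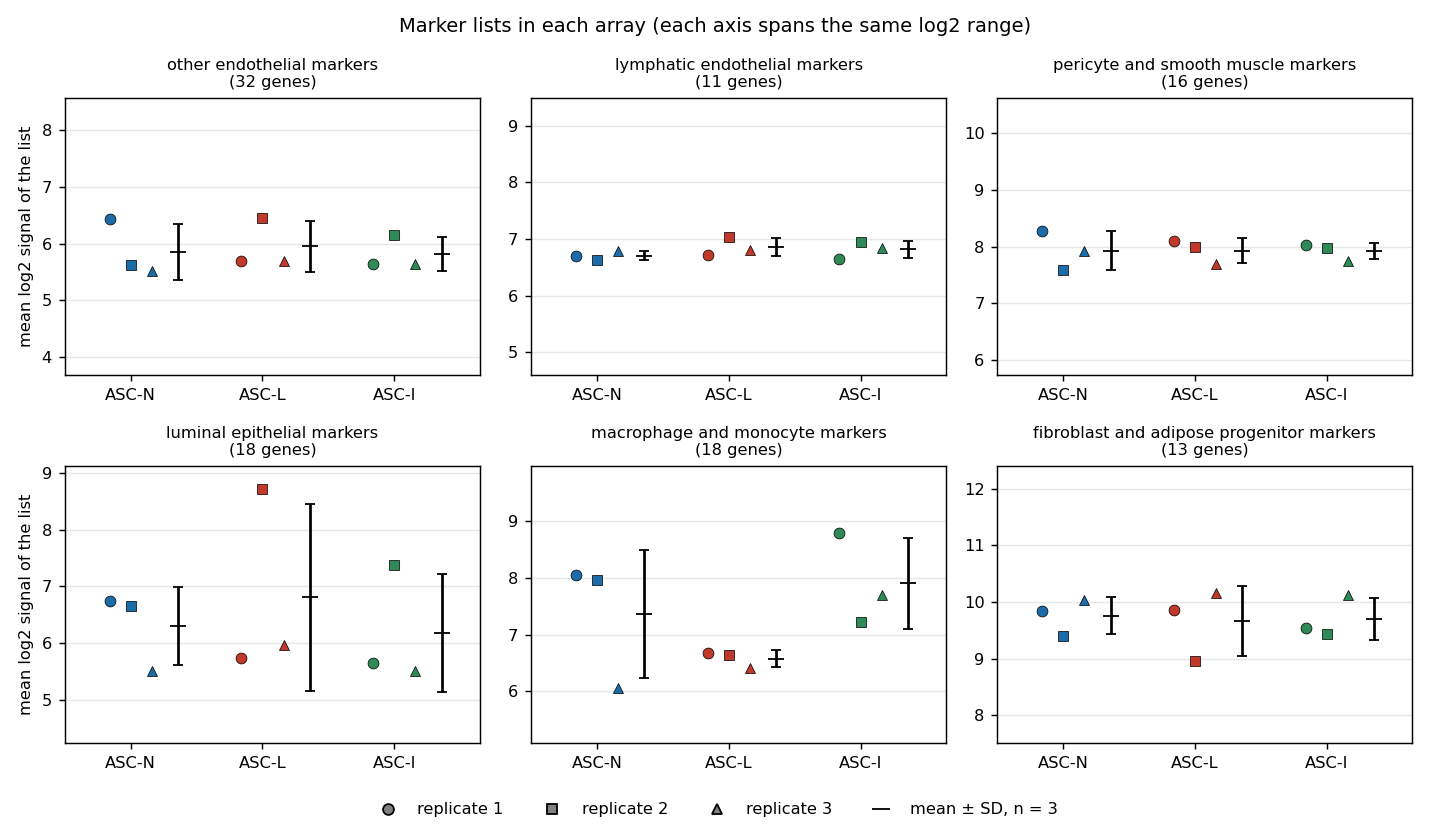
Mean log2 signal (vertical axes, which cover equal spans) over the genes of 6 marker lists in the 3 arrays of each stage; symbols are replicates 1, 2 and 3, and bars are the mean ± SD (n = 3). Other endothelial markers reach 6.43, 6.46 and 6.15 in ASC-N replicate 1, ASC-L replicate 2 and ASC-I replicate 2, luminal epithelial markers are highest in ASC-L replicate 2 (8.71), and macrophage markers in ASC-I replicate 1 (8.80).

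Across the 9 arrays, the log2 signals of Pecam1 and Emcn correlated with r = 0.99, Pecam1 and Tie1 with r = 0.96, and Emcn and Esam with r = 0.95, as a description of 9 arrays in which 3 carry most of the range. Eng correlated with Emcn at r = -0.13, Vwf at r = -0.24, Prox1 at r = 0.05 and Lyve1 at r = -0.62. Of 19920 genes other than the markers, those closest to the mean of the 10 standardized markers were Erg (r = 0.94), an ETS factor of endothelium, Dpysl4 (r = 0.94), Sobp (r = 0.93), Sox17 (r = 0.93), a transcription factor of arterial endothelium, and Zbtb43 (r = 0.93). Erg read 5.99, 4.84 and 5.07 in ASC-Ns, 5.18, 6.36 and 5.34 in ASC-Ls, and 5.09, 5.86 and 4.97 in ASC-Is.

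Between stages, 0 of the 10 markers passed the limits of a change of 1.5-fold or more together with an unadjusted p under 0.05 in limma, which fits a linear model to every gene. This holds for ASC-Ls against ASC-Ns, where 0.627% of all genes passed, for ASC-Ls against ASC-Is, where 0.482% passed, and for ASC-Is against ASC-Ns, where 0.251% passed. At these shares a list of 10 genes would seldom hold a gene that passed. A moderated F test over the 3 stages was passed by 0 markers at an unadjusted p under 0.05, compared with 1.73% of all genes. After Benjamini-Hochberg adjustment over all genes in limma, 0% of genes passed in each comparison and in the F test, while 726, 359 and 311 genes had an unadjusted p under 0.05 in the 3 comparisons in this order. For the markers the adjusted p was 0.998, 1.000 and 1.000 in limma.

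The intervals were wide for the markers that varied within stages. The stage means of Emcn were 5.49 for ASC-Ns, 5.94 for ASC-Ls and 5.42 for ASC-Is, with SDs of 2.35, 2.52 and 2.22 (n = 3 each). Its difference between ASC-Ls and ASC-Ns was 0.45 with a 95% interval from -3.15 to 4.05, a range that holds no change as well as large changes in either direction. For Pecam1 it was 0.24 (interval from -2.03 to 2.52), for Esam 0.56 (from -0.85 to 1.98) and for Tie1 0.25 (from -0.68 to 1.17). Tek differed by -0.42 between ASC-Is and ASC-Ns (standard error 0.32, interval from -1.15 to 0.31). That difference depended on ASC-N replicate 3: without it the difference was -0.73 and passed the unadjusted limits, at an adjusted p of 0.988 in limma.

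For Eng, whose SD within a stage was above that of the median gene, the intervals were of intermediate width. It differed by 0.10 between ASC-Ls and ASC-Ns (from -0.38 to 0.57), by -0.12 between ASC-Ls and ASC-Is (from -0.59 to 0.36) and by 0.21 between ASC-Is and ASC-Ns (from -0.26 to 0.69). The intervals of Vwf, Lyve1 and Prox1, the least variable markers, were narrower and all stayed within a 1.5-fold change in both directions. Their mean signals stood at percentiles 38.8, 33.2 and 21.4 of all genes, and those of Emcn, Tie1 and Tek at 40.1, 38.8 and 37.0. Whether any of these was above background was not tested. The narrow intervals thus describe the signal and may not bound a change in transcript. Between ASC-Ls and ASC-Is, Prox1 differed 1.24-fold with the higher mean in ASC-Ls, a log2 difference of 0.31 (standard error 0.11, interval from 0.06 to 0.57), and its arrays did not overlap in that comparison or between ASC-Is and ASC-Ns, where the difference was -0.25. Vwf arrays did not overlap between ASC-Ls and ASC-Ns (difference 0.18, standard error 0.11). Such separation of arrays held for 8.59% of all genes in ASC-Ls against ASC-Ns, 5.56% in ASC-Ls against ASC-Is and 6.54% in ASC-Is against ASC-Ns, so that 1 of 10 markers in each is near the background. In the F test, Prox1 passed the unadjusted limit with the replicate number as a block, and also without ASC-L replicate 1.

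**Figure D5:**
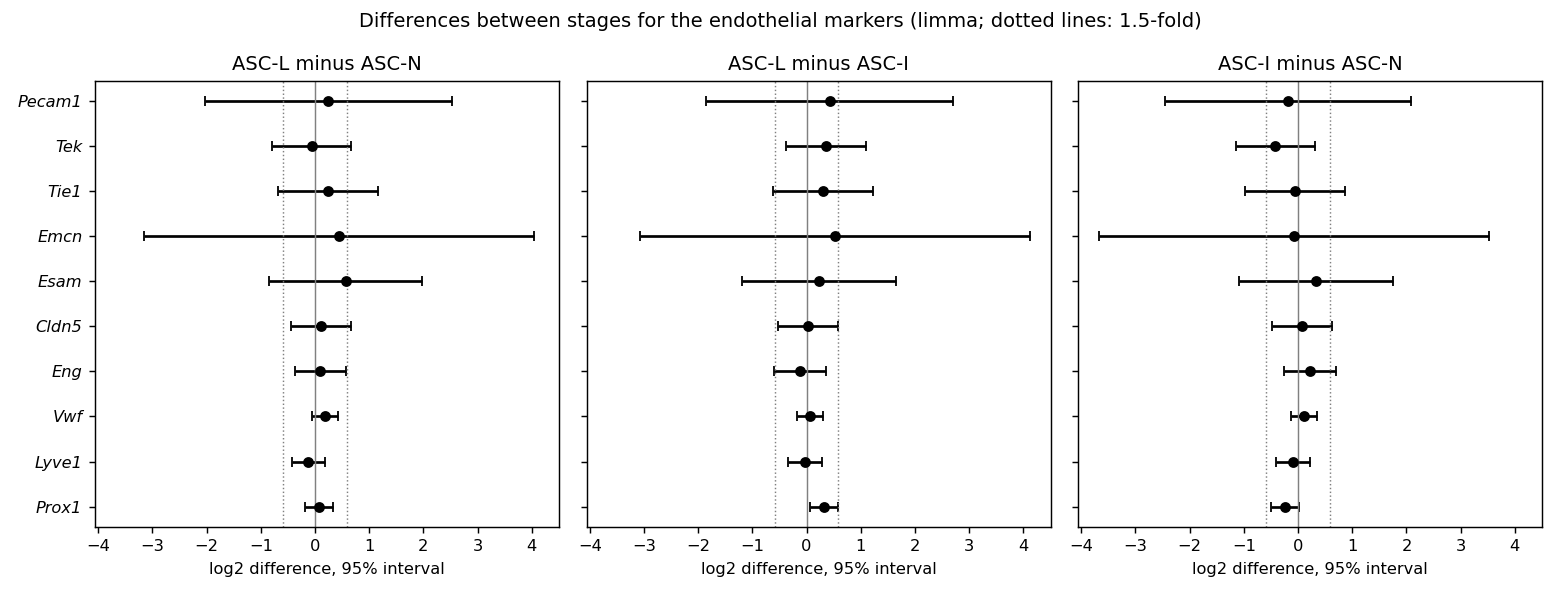
Difference in mean log2 signal between stages (horizontal axis) for each endothelial marker, with its 95% interval from limma over 9 arrays; the panels are ASC-L minus ASC-N, ASC-L minus ASC-I and ASC-I minus ASC-N, and dotted lines mark a 1.5-fold change. The interval of Emcn for ASC-L minus ASC-N runs from -3.15 to 4.05, whereas those of Vwf, Lyve1 and Prox1 stay between the dotted lines.

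With all 9 arrays, the mean in ASC-Ls exceeded that of ASC-Ns in 8 of 10 cases, with a median difference of 0.14 compared with 0.01 over all genes, and in 8 of 10 cases against ASC-Is, with a median of 0.27. For ASC-Is against ASC-Ns the mean was higher in 4 and lower in 6, with a median of -0.06. The comparisons of ASC-Ls share the lactation arrays, and these tallies rested on single arrays. Without ASC-L replicate 2, 5 of 10 markers had the higher mean in ASC-Ls against ASC-Ns (median 0.0014) and 4 of 10 against ASC-Is (median -0.09). With array weights 3 of 10 were higher against ASC-Ns (median -0.13), and without ASC-I replicate 1 or ASC-I replicate 3 the count against ASC-Is was 5 of 10. With single arrays left out, the count for ASC-Is against ASC-Ns ran from 2 without ASC-I replicate 2 to 7 without ASC-N replicate 1 or ASC-I replicate 1.

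The same comparisons gave few calls among other genes of vessels. Of 32 other endothelial markers, 1 rose in ASC-Ls compared with ASC-Ns, Flt1, a VEGF receptor, by a log2 difference of 0.82 (standard error 0.30), where 0.171% of all genes rose and 0.457% fell. Flt1 read 6.90, 6.13 and 6.57 in ASC-Ns and 7.54, 7.82 and 6.71 in ASC-Ls, so that the stages overlapped. In the 14 measured junction genes, F11r, the adhesion molecule JAM-A of endothelium and epithelium, was the 1 that rose, by 0.89 (standard error 0.36), with 9.23 in ASC-L replicate 2. Of 19 genes around endoglin and ALK1, Smad6, an inhibitor of BMP signaling, fell by 0.72 in ASC-Ls and by 0.72 in ASC-Is relative to ASC-Ns (standard error 0.29 for each). Among all genes, 0.0702% rose and 0.181% fell in ASC-Is relative to ASC-Ns.

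No gene passed in any comparison among 11 lymphatic markers, 10 genes of the angiopoietin and Tie pathway, 12 genes of Vwf and its storage bodies, 16 pericyte and smooth muscle markers or 9 platelet and erythroid markers. The 3 genes called in the vascular lists, Flt1, F11r and Smad6, had adjusted p from 0.998 to 1.000 in limma. In ASC-Ls against ASC-Is, 0.0753% of all genes rose and 0.406% fell, and none of the vascular lists had a call. In that comparison 10 of 18 macrophage and monocyte markers fell, each with an adjusted p of 0.9996 in limma. Lyve1, which macrophages can carry, differed by -0.02 in that comparison (interval from -0.34 to 0.29).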

How the data were processed

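The deposited log2 signals of 9 arrays were used as given. By the study's methods, the authors normalized them with robust multi-array average, while the submitters' processing notes name GCRMA and limma without versions. Scanner files were not used here, and no batch was given in the sources used here.

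Of 28348 probe sets, 21762 with exactly 1 gene symbol were averaged per gene (19930 genes), and 1621 with several symbols and 4965 with none were left out. A model with 3 stage means over the 9 arrays was fitted in limma 3.58.1 (R 4.3.3), with variances moderated by empirical Bayes at 2.91 prior degrees of freedom. Limits were an unadjusted p under 0.05 and at least 1.5-fold, with Benjamini-Hochberg adjustment over all genes beside them. The number of arrays limits the precision. The script was tested on simulated data.

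The members and gene lists were chosen with earlier results of these data known. Genes named are the markers, up to 4 called genes of each list, and the 5 genes closest to the mean of the standardized markers. Other genes named, and the pattern of 3 high arrays, were chosen after their values were seen. Cdh5, Ptprb, Angpt2 and Aqp1 stand in more than 1 list.

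Replicate numbers come from the labels, which name no pairing. Deviations from stage means correlated across genes between arrays of the same number at r = 0.46, 0.72 and 0.45 for lactation with involution, at r = -0.09, 0.40 and 0.45 for lactation with nulliparous arrays, and at r = 0.06, 0.44 and 0.50 for involution with nulliparous arrays. Every r was over 0.1 for lactation with involution alone, and the replicate block is given where it changed a count of markers. Alternatives were other moderation, normalization, filters, probe sets and array weights, a replicate block, and arrays left out.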

Additional observations from a re-analysis of the deposited data

How the results depend on the processing

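With 3 arrays per stage, these data cannot show modest stage differences for markers with an SD of the size of Emcn. The count of markers past the limits stayed at 0 for ASC-Ls against ASC-Is under every alternative tried. It became 1 for ASC-Is against ASC-Ns, Tek, with array weights (log2 difference -0.69) and when ASC-N replicate 3, ASC-L replicate 2 and ASC-I replicate 2 were left out together (-0.91), and that last setting also gave 1, Tek, for ASC-Ls against ASC-Ns (-0.63) and 1, Tek, in the F test over the 3 stages. The F test gave 1, Prox1, with an intensity trend and robust prior. Leaving out each array in turn gave 0 to 1 markers for ASC-Is against ASC-Ns (1 without ASC-N replicate 3, Tek at -0.73) and 0 to 1 in the F test (1 without ASC-L replicate 1, Prox1). With the replicate block the F test gave 1, Prox1, and the block changed no other count of markers. No marker reached an adjusted p under 0.05 in limma under any alternative (the lowest was 0.163, for Tek). Without ASC-N replicate 1, ASC-L replicate 2 and ASC-I replicate 2, a setting chosen after seeing the data, 0 markers passed in each comparison, while 96, 198 and 141 genes did over the array, against 125, 96 and 50 with all arrays. Differences that passed no limit changed sign in some refits, for Emcn in 13 of 66 and for Pecam1 in 11 of 66, whereas those of Vwf did in 0. These 66 refits cover the 3 comparisons together. Many of them (other moderation, filters, the replicate block, or an array of another stage left out) could not alter a difference. The counts thus understate how readily a sign changed where it could. Prox1 had no value where the lowest 25% of signals were left out. The cause of these changes was not tested.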

Other observations

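The 14 genes whose signal was at least 1 higher on the log2 scale in ASC-N replicate 1, ASC-L replicate 2 and ASC-I replicate 2 than in the other arrays of their stage were Adgrf5, Adgrl4, Cdh5, Emcn, Esam, Esm1, Gimap4, Gimap6, Gpr50, Mest, Moxd1, Pecam1, Sparcl1 and Trp53i11. Beside the endothelial markers among them, Esm1 is a proteoglycan secreted by endothelial tip cells, and Mest is an imprinted gene known from expanding adipose tissue. Mest read 8.61, 5.40 and 4.82 in ASC-Ns, 4.89, 8.46 and 4.93 in ASC-Ls, and 4.83, 7.46 and 5.17 in ASC-Is. Its correlation with Emcn over the 9 arrays was 0.98, compared with 0.99 for Cdh5 and 0.98 for Heyl, a target of Notch signaling in vessels and mural cells, and 0.97 for both the tetraspanin Tspan1 and Gimap6. Heyl read 7.15, 6.13 and 5.90 in ASC-Ns, 6.02, 7.51 and 6.09 in ASC-Ls, and 5.94, 6.86 and 5.92 in ASC-Is. The genes closest to Eng over the arrays were others, with Abi1 first (r = 0.96), followed by Btg1c and Abhd17c (r = 0.92 for each) and Foxf2 (r = 0.92), a transcription factor of mesenchyme and pericytes. These genes were listed after the pattern had been seen, and no test was made.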
